A study of Mus musculus with 4 samples.

Results

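Type I interferon-stimulated genes were followed across the cell types of mouse tumour-draining lymph nodes. The genes came from a list of 42 symbols known for their induction by type I interferon, and members were matched by symbol alone. Of these, 41 were matched by symbol among the 31053 genes of the deposited matrix, and Mx2 was not analysed here. Single cells from the inguinal lymph nodes of C57BL/6J mice had been profiled with droplet 3' RNA sequencing, in which each captured transcript is counted once through a unique molecular identifier (UMI). All mice, 2 in each group, carried B16F10 melanoma, a transplantable mouse tumour line, implanted on both thighs. Control mice received no drug. Treated mice had indoximod, which blocks the tryptophan-degrading IDO pathway, in their drinking water from day 9 at 2 mg/ml, were injected daily with 350 ug of ibrutinib, a BTK inhibitor, from day 9, and were given 150 mg/kg of cyclophosphamide, an alkylating drug, on day 10. Nodes were collected 2 days after cyclophosphamide. The matrix holds 4 libraries that are told apart by a number on each cell barcode, and no label used here ties those numbers to a mouse or a treatment. The libraries are therefore described one by one, as libraries 1 to 4, and treated mice are not compared with control mice.

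Type I interferons, the IFN-alpha and IFN-beta proteins, bind a receptor made of Ifnar1 and Ifnar2 on nearly all nucleated cells. The kinases Jak1 and Tyk2 then phosphorylate Stat2, which together with Irf9 is part of a complex that binds interferon-stimulated response elements in the promoters of target genes. The products of these genes sense viral nucleic acid, block translation or budding of viruses, and tune the response itself, and in lymph nodes plasmacytoid dendritic cells and monocytes are well known for their part in it.

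The core of the response element, 2 GAAA blocks that are 2 bases apart, was sought on both strands, overlapping matches included, in RefSeq promoter windows of build GRCm38.p6 that run from 250 bases before a gene's start to 50 after it. Entries were found for 32 of the 42 listed genes. The motif was present in 17 of those 32 (53.1%) and in 3.99% of the 27025 genes in the table. The 17 were Stat2, Ifih1, Ddx58, Ifi203, Ifi213, Ifit1, Ifit3, Ifit3b, Oas1a, Oas3, Eif2ak2, Rsad2, Bst2, Slfn5, Slfn8, Trim30a and Isg15. Windows of 200 bases are printed for 5 genes with the motif and for Irf7, the interferon response's own amplifying transcription factor, because levels of these 6 genes differed widely between cell classes or libraries. Capitals mark the motif. The windows, 5' to 3' along each gene, are chr19:34640689-34640888 (plus strand) for Ifit1, chr19:34583329-34583528 (plus) for Ifit3, chr19:34607757-34607956 (plus) for Ifit3b, chr4:156200819-156201018 (minus) for Isg15, chr12:26456453-26456652 (minus) for Rsad2 and chr7:141266425-141266624 (minus) for Irf7. The windows of Ifit1 and Irf7 overlap the first bases of the gene in the GENCODE annotation, whose start differs from that of RefSeq.
Ifit1: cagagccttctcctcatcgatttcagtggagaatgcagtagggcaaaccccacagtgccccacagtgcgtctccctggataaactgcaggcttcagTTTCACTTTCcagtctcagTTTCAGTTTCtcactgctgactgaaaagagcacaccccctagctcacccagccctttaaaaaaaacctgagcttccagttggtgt
Ifit3: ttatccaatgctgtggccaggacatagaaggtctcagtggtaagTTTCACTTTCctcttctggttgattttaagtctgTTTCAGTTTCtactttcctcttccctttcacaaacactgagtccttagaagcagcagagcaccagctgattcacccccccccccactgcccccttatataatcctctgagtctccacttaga
Ifit3b: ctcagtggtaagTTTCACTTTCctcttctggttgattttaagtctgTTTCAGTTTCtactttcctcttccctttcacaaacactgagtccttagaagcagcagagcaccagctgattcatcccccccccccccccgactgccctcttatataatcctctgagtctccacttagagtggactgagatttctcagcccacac
Isg15: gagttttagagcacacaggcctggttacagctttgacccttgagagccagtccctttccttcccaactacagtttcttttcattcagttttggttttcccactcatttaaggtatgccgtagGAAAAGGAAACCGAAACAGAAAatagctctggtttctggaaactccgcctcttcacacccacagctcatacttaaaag
Rsad2: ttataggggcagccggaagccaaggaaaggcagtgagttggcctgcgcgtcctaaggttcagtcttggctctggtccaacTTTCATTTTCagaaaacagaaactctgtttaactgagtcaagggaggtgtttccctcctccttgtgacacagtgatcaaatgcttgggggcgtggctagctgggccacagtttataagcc
Irf7: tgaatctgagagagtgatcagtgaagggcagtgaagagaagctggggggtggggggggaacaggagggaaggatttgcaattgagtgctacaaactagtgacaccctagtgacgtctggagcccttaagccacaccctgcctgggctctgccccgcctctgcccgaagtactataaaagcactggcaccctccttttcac
Ifit1, Ifit3 and Ifit3b each hold 2 matches, Isg15 holds 3 that overlap in 1 stretch, Rsad2 holds 1, and the Irf7 window holds none, which says only that these letters are not in it. Ifit3 and Ifit3b windows share 167 of 174 aligned bases (96.0%). A match is a description of the sequence and not evidence of binding.

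The 4 libraries held 30824 barcodes and between 39589629 and 53643414 UMIs each. Cells with at least 300 genes and at most 10% mitochondrial UMIs numbered 26096, from 5667 to 8336 per library, with a median depth of 5229 to 5558 UMIs and a median mitochondrial share of 4.60% to 5.10%. Of these, 61 barcode sequences occurred in more than 1 library and touched 122 cells. Marker gates placed 20695 cells in a single class: 8916 B cells, 288 germinal centre B cells, 2785 CD4 T, 6848 CD8 T, 797 regulatory T, 255 gamma-delta T and 63 NK cells, 409 mature dendritic cells, 56 plasmacytoid dendritic cells, 65 monocytes and 170 macrophages, with smaller classes left undescribed. Markers that were not used for gating followed the gates for most classes, with Pax5, Fcmr, Blk and Bank1 summing to 1940 UMIs per 1000000 (CPM) in B cells against 11.5 in CD4 T cells, and Relb, Ccr7 and Tmem123 to 5211 CPM in mature dendritic cells against at most 336 in any other class. The monocyte list (Fcer1g, Cybb, Tyrobp) summed to 7017 CPM in monocytes but also to 6545 in plasmacytoid dendritic cells and 5120 in NK cells, so it did not set monocytes apart.

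The 41 genes together held 0.360% of the UMIs of kept cells. Ifi27l2a, a small membrane protein induced by interferon, held 35.4% of that sum, Ifi203 9.50% and Ifi209 4.63%. All 41 are annotated as protein-coding and lie on 15 chromosomes. Related genes often share a chromosome: Ifit1, Ifit2, Ifit3 and Ifit3b lie on chromosome 19, and Ifi203, Ifi204, Ifi209 and Ifi213 on chromosome 1. Chromosome 5 holds Oas1a, Oas2 and Oas3 and, apart from them, Oasl1 and Oasl2. Slfn5 and Slfn8 on chromosome 11, and Rsad2 and Cmpk2 on chromosome 12, are also close to each other. Reads that match near-identical copies can be split or dropped by the counting, so levels of Ifit3 and Ifit3b, the PYHIN genes and the Oas genes are uncertain in that respect.

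By the summed level, monocytes, macrophages and plasmacytoid dendritic cells stood high and mature dendritic cells low. Monocytes had the highest sum in libraries 3 and 4 but not in libraries 1 and 2. In plasmacytoid dendritic cells Bst2 alone held 1720 of the 3132 UMIs of the sum. The summed level of the 41 genes in monocytes was 5869, 6988, 19593 and 15123 CPM in libraries 1 to 4. Plasmacytoid dendritic cells had 6945, 7928, 10229 and 5528 CPM and macrophages 8570, 3628, 10397 and 7222 CPM. Ranges of these 3 myeloid and plasmacytoid classes overlap. The macrophage level of library 1, at 8570 CPM, may rest largely on a single cell. Of the macrophages there, 43 were too shallow to be thinned to an equal depth. Among the 12 that were thinned, a single cell held 107 UMIs of the 41 genes, 50.5% of their sum. Among lymphocytes, B cells had 3077, 3080, 5819 and 5832 CPM, regulatory T cells 4389, 4090, 5582 and 5984 CPM, CD4 T cells 2813, 2823, 4046 and 3829 CPM and CD8 T cells 2272, 2286, 3513 and 3500 CPM. In each of these 4 classes both libraries 3 and 4 lie above both libraries 1 and 2. Gamma-delta T cells had 2521, 3557, 4745 and 3935 CPM and NK cells 1109, 1851, 2917 and 2250 CPM. Mature dendritic cells reached only 901, 1097, 1338 and 1222 CPM, below every B or T library. Germinal centre B cells had 844, 1112, 785 and 3145 CPM, but libraries 3 and 4 hold only 5 and 4 such cells, against 135 and 144 in libraries 1 and 2. Exact 95% Poisson intervals were narrow in the large classes, for example 3040 to 3114 CPM in B cells of library 1, and here as elsewhere cover counting error only.

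**Figure D1:**
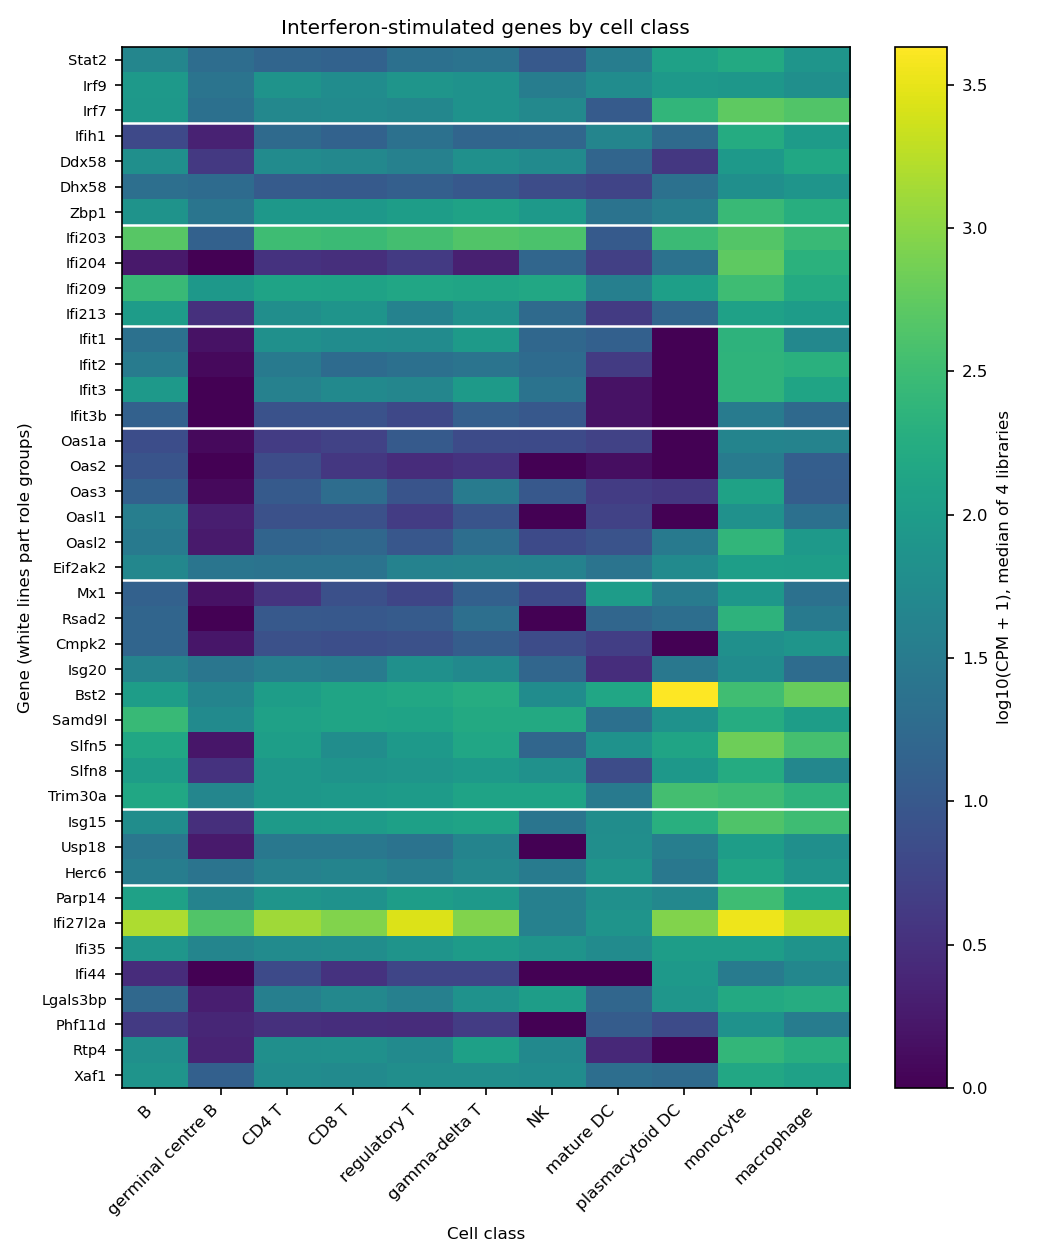
Level of each of the 41 genes (rows, by role) in 11 cell classes (columns), as log10 of CPM plus 1, the median of the 4 libraries. Monocytes hold the highest level for 28 of the 41 genes, a count not made over all genes. Bst2 peaks in plasmacytoid dendritic cells and Mx1 in mature dendritic cells.

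By median over libraries, monocytes were the highest class for 28 of the 41 genes. The same count was not made over all genes, so how often this class of 65 cells ranks highest for any gene is not known. Macrophages led for Ddx58, Dhx58, Cmpk2 and Lgals3bp, plasmacytoid dendritic cells for Bst2, Trim30a, Ifi35 and Ifi44, and B cells for Irf9, Ifi203 and Samd9l. Regulatory T cells led for Isg20, an RNA exonuclease, with 60.9, 55.5, 74.4 and 70.5 CPM, and mature dendritic cells for Mx1.

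Of the transcription factors, Irf7 varied most. In B cells it stood at 33.2, 29.0, 136 and 141 CPM in libraries 1 to 4, with libraries 3 and 4 far above libraries 1 and 2. Its level was 213, 108, 968 and 870 CPM in monocytes and 158, 180, 762 and 315 CPM in plasmacytoid dendritic cells, the class known for constitutive Irf7. Mature dendritic cells held 0, 8.60, 11.5 and 20.04 CPM. Irf7 was thus low in mature dendritic cells in all 4 libraries and high in monocytes of libraries 3 and 4. Irf9, the DNA-binding subunit of the complex, was flatter, with 78.7, 78.3, 104 and 102 CPM in B cells and 69.4, 70.5, 73.1 and 84.8 CPM in CD4 T cells. Stat2, its partner, stood at 41.9, 41.5, 55.0 and 47.6 CPM in B cells and at 13.2, 15.1, 18.2 and 13.7 CPM in CD4 T cells, so the 2 classes do not overlap.

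Among the sensors, Ifih1 (MDA5), which recognises long double-stranded RNA, had its B cell levels at 3.61, 3.77, 7.47 and 6.74 CPM and its mature dendritic cell levels at 44.5, 37.8, 43.9 and 50.5 CPM. Monocytes ranged from 63.9 to 457 CPM. Ddx58 (RIG-I), the sensor of RNA ends, ranged from 55.9 to 77.5 CPM over B cell libraries and from 44.7 to 55.7 CPM over CD8 T libraries. Dhx58 (LGP2), their regulator, ranged from 9.91 to 26.5 CPM in B cells. Zbp1, a sensor of Z-form nucleic acid, ranged from 50.8 to 103 CPM in B cells and stood at 16.9, 8.60, 68.0 and 29.7 CPM in mature dendritic cells, where library 3 was highest.

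PYHIN proteins bind DNA in nucleus and cytosol. Ifi203 was the highest of them in B cells by UMIs, with 445, 434, 551 and 526 CPM, and stood at only 9.21, 13.8, 6.28 and 10.4 CPM in mature dendritic cells. The ranges are far apart. Ifi209 ranged from 252 to 339 CPM in B cells and from 114 to 137 CPM in CD4 T cells, and Ifi213 from 59.5 to 143 CPM in B cells. Ifi204 stood at 255, 449, 914 and 631 CPM in monocytes against 0.117, 0.251, 1.3 and 1.82 CPM in B cells.

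IFIT proteins bind viral RNA and hinder its translation. Ifit3 was at 41.2, 31.5, 136 and 138 CPM in B cells and at 28.5, 22.4, 76.6 and 77.7 CPM in CD8 T cells. In monocytes it was at 58.5, 89.8, 645 and 369 CPM. Libraries 3 and 4 are above libraries 1 and 2 in each of these classes. By contrast mature dendritic cells held 8 Ifit3 UMIs in all, germinal centre B cells 4, and plasmacytoid dendritic cells 0, which allows up to 7.47 CPM. Ifit1, which recognises viral RNA caps, had the reverse order of lymphocytes, with 13.1, 8.91, 30.3 and 29.9 CPM in B cells and 40.6, 44.3, 113 and 85.4 CPM in CD4 T cells. Ifit2 ranged from 15.7 to 48.4 CPM and Ifit3b from 3.96 to 21.1 CPM in B cells.

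The group called 2-5A synthetases and PKR here holds 2-5A synthetases, which activate RNase L, and the related Oasl1. It also holds the kinase PKR (Eif2ak2), which stops translation. In B cells Oas1a ranged from 2.57 to 9.43 CPM, Oas2 from 3.96 to 12.7, Oas3 from 4.64 to 18.4, Oasl2 from 13.2 to 46.1 and Eif2ak2 from 37.4 to 54.1. Oasl1, which represses Irf7 translation, stood at 19.9, 18.3, 48.8 and 48.4 CPM in B cells against 5.62, 3.03, 9.32 and 8.12 CPM in CD4 T cells. Oas3 reached 47.9, 62.9, 323 and 185 CPM in monocytes.

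Of the other antiviral effectors, Bst2 (tetherin), which holds budding virus at the membrane and is a known surface marker of mouse plasmacytoid dendritic cells, stood at 4406, 4150, 4744 and 3078 CPM in those cells. B cells had 64.5, 70.0, 143 and 141 CPM of it and monocytes 261, 153, 430 and 387 CPM. The highest library of any other described class was that of macrophages in library 3, at 994 CPM. Transcripts of Mx1, a gene of the dynamin-like GTPase family, stood at 99.8, 126, 100.4 and 95 CPM in mature dendritic cells, with little difference between libraries, against 6.76, 6.78, 18.3 and 17.7 CPM in B cells. Rsad2 (viperin), which makes a chain-terminating nucleotide together with Cmpk2, ranged from 8.4 to 21.3 CPM in B cells and from 90.5 to 636 CPM in monocytes. In macrophages 74 of its 78 UMIs came from library 1, and 7 cells in all held any. Cmpk2 ranged from 12.7 to 17.2 CPM and Isg20 from 29.1 to 53.7 CPM in B cells. Samd9l, a translation inhibitor, was at 253 to 318 CPM there. Slfn5 was at 76.6, 96.4, 197 and 198 CPM in B cells and 341, 647, 1138 and 691 CPM in monocytes. Slfn8 ranged from 82.4 to 126 CPM and Trim30a from 110.0 to 192 CPM in B cells.

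Isg15, a ubiquitin-like protein conjugated to other proteins, was at 28.6, 32.4, 84.8 and 89.4 CPM in B cells and at 56.4, 58.6, 136 and 142 CPM in CD8 T cells. In mature dendritic cells it was at 15.3, 43.0, 124 and 75 CPM, with libraries 3 and 4 again highest. Usp18, the protease that removes Isg15 and dampens the receptor, was at 52.2, 65.3, 56.5 and 67.5 CPM in mature dendritic cells against 15, 18.2, 35.1 and 34.1 CPM in B cells. Herc6, the mouse Isg15 ligase, ranged from 25.5 to 47.2 CPM in B cells.

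Of the further induced genes, Ifi27l2a was at 885, 882, 2174 and 2256 CPM in B cells, 1884, 1249, 5053 and 5206 CPM in monocytes and only 33.8, 56.7, 92.0 and 92.8 CPM in mature dendritic cells. Regulatory T cells had 2411, 2252, 3033 and 3556 CPM of it, above CD4 T cells at 1093, 1060, 1590 and 1535 CPM. Rtp4, a chaperone that also binds viral RNA, was at 39.9, 33.3, 91.9 and 91.1 CPM in B cells and at 1.53, 1.72, 4.18 and 1.48 CPM in mature dendritic cells. In B cells Parp14 ranged from 104 to 132 CPM, Ifi35 from 58.9 to 98.2, Ifi44 from 1.52 to 2.82, Lgals3bp from 10.8 to 26.0, Phf11d from 2.01 to 4.60 and Xaf1 from 47.9 to 104.

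Classes were then compared within libraries. The call of a higher or lower gene needed a CPM ratio of 1.5-fold or more, pointing one way in all libraries with 10 or more UMIs of the gene when both classes are added, and 3 or more libraries had to qualify. This is a rule of size and not a significance test. Log2 ratios compare the means of the 4 libraries' CPM, each library weighted equally, and the lowest and highest library value is given after them. Median log2 ratios over genes are of ratios with 1 UMI added to each class, so they differ in that from the ratios of single genes.

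B cells were above CD4 T cells for 8 of 40 genes and below for 4, where 15% of all 11123 genes tested were called higher and 10.9% lower. The share of these genes called higher was thus near the background, and their median log2 ratio was 0.46 against 0.10 for all genes. Oasl1 was higher by a log2 ratio of 2.38 (1.83 to 2.60), Mx1 by 2.22 (1.98 to 2.62), Stat2 by 1.63 (1.46 to 1.80) and Ifi209 by 1.22 (0.88 to 1.48). Oasl2, Eif2ak2, Cmpk2 and Samd9l were also called higher. Ifit1 was lower at -1.79 (-2.31 to -1.52), as were Ifih1 at -1.68, Ifi44 at -1.48 and Lgals3bp, a secreted glycoprotein, at -1.12. No member of the Isg15 group was called.

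T cell classes differed little from one another. CD8 T cells were above CD4 T cells for 2 of 40 genes, Mx1 at 1.31 and Oas3 at 0.98, and below for Oas2 at -0.99 and Slfn5 at -0.93, against 3.48% of all genes called higher and 2.56% lower. Without library 1 the lower count was 4. Regulatory T cells were above CD4 T cells for 2 of 41 genes, Oas1a at 1.61 and Ifi27l2a at 1.09 (0.93 to 1.21), and below for Oas2 at -1.76 and Oasl1 at -0.85, against 12.1% of all genes higher and 1.9% lower. Median log2 ratios were -0.04 and 0.06, against -0.08 and 0.25 for all genes. With TMM scaling in place of total UMIs, which shifts all genes by -0.31 in the regulatory T comparison, Ifi27l2a was no longer called.

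Germinal centre B cells, which are dividing B cells in follicles, were below other B cells for 30 of 40 genes and above for none, against 15.7% of all genes lower and 8.66% higher. The median log2 ratio was -3.36 against -0.08 for all genes. Libraries 3 and 4, with 9 of these cells, weigh as much in it as libraries 1 and 2. All 4 IFIT genes, 5 of the 6 in the 2-5A synthetase and PKR group and 8 of the 9 other antiviral effectors were lower. Ifit3 had 4 UMIs in germinal centre B cells, all in library 1, where it stood at 2.05 CPM against 41.2 CPM in other B cells. Other B cells of library 2 had 31.5 CPM of it. Rsad2 and Ifit3b had 0, which allows up to 0.680 CPM over the class, against 586 and 522 UMIs in other B cells. Slfn5 stood at 9.72 and 1.29 CPM in libraries 1 and 2 and at 0 in libraries 3 and 4. Irf7, Ifih1, Dhx58, Ifi209, Eif2ak2, Isg20, Herc6, Ifi27l2a, Ifi35 and Phf11d were not called. Because libraries 3 and 4 hold 9 of these cells, a stricter count was made only where each class would hold at least 5 UMIs at an equal level, and 29 of 37 genes were then lower and 0 higher, against 20.6% and 19.7% of all genes. Germinal centre B cells had a median of 11897.5 UMIs, and with every cell thinned to 1500 UMIs 24 of 38 genes were lower, against 16.8% of all genes.

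Mature dendritic cells, the migratory form that carries antigen into the node, showed a split pattern against B cells. They were above for 5 of 40 genes and below for 23, against 17.3% of all genes higher and 23.4% lower, with a median log2 ratio of -1.83 against -0.19. Mx1 was higher at 3.09 (2.43 to 4.21), Ifih1 at 3.03 (2.56 to 3.62), Phf11d at 1.61 and Usp18 at 1.24 (0.69 to 1.84), and Herc6 was higher at 1.08. On the lower side were Ifit3 at -5.79, Ifi203 at -5.62 (-6.46 to -4.98), Ifi213 at -4.88 and Rtp4 at -4.84. All 3 PYHIN genes tested and 5 of 6 genes of the 2-5A synthetase and PKR group were lower. Isg15, Stat2, Irf9, Bst2 and 8 others were not called. Within the same class, then, Mx1, Ifih1 and Usp18 were above B cells while Irf7 and Ifit3 were below, in all 4 libraries. These are sums over the class, and whether single cells held this mix was not tested.

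Plasmacytoid dendritic cells were above B cells for 6 of 40 genes and below for 12, against 8.4% of all genes higher and 15% lower, with a median log2 ratio of -0.27 against 0.31. Bst2 was higher at 5.29 (4.44 to 6.09), Lgals3bp at 2.26, Irf7 at 2.06 (1.16 to 2.63) and Mx1 at 1.45, together with Stat2 and Trim30a. Lower were all 4 IFIT genes, Ddx58 at -3.30, Ifi213, Oas1a, Oas2, Samd9l, Parp14, Rtp4 and Xaf1. Only 56 cells stand behind the class, 5 of them in library 4, and Ifit3, Ifit3b and Rtp4 had 0 UMIs. Ifi44, at 87.8, 101, 92.6 and 0 CPM, was above B cells in libraries 1 to 3 but had no UMI in library 4 and was not called. Where each class would hold at least 5 UMIs at an equal level, 5 of 21 genes were higher and 8 lower, against 9.4% and 14.8% of all genes. Of the IFIT genes only Ifit3 was then lower, and Oas1a and Oas2 were no longer called. The Ddx58 ratio rests on 3 UMIs in plasmacytoid dendritic cells. The higher count was 1 with TMM scaling and 3 with at least 500 genes and at most 5% mitochondrial UMIs per cell, and in simulated counts for this comparison the rule called 10.3% of unchanged genes.

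Monocytes were above mature dendritic cells for 26 of 33 genes and below for none, against 14.5% of all genes higher and 12.2% lower. The median log2 ratio was 3.29 against 0.21 for all genes. Ifit3 was higher at 7.54, Ifi204 at 7.16 (7.03 to 7.38), Rtp4 at 6.73 (5.96 to 7.5) and Irf7 at 5.75, and all 4 PYHIN genes were called higher. The Ifit3 ratio rests on 8 UMIs in mature dendritic cells. Irf9, Ifih1, Mx1, Bst2, Usp18, Herc6 and Ifi35 were not called. With at least 5 UMIs expected in each class, 20 of 27 genes were higher and 0 lower, against 16.2% and 15.9% of all genes. Macrophages differed from monocytes for few of the 36 genes tested: Bst2 was higher at 1.14 (0.88 to 1.68), and Oas3 at -2.50, Oasl2 at -1.49 and Phf11d at -1.32 were lower, against 7.41% of all genes higher and 12.2% lower. The median log2 ratio was -0.61 against -0.13. Leaving out library 1 raised the lower count from 3 to 12, and leaving out library 4 reduced it to 1.

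**Figure D2:**
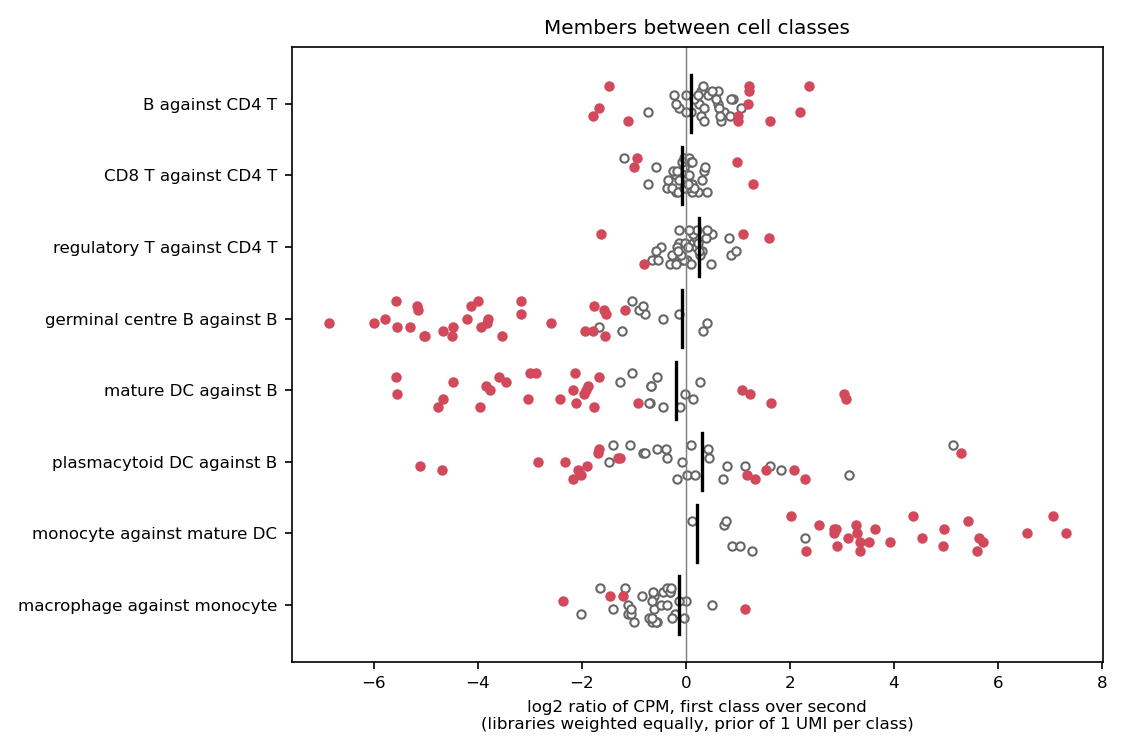
Log2 ratio of CPM for each gene tested in 8 class comparisons, first class over second, with libraries weighted equally and a prior of 1 UMI per class. Filled red points passed the 1.5-fold rule, open points did not, and black bars mark the median of all genes tested. Most points lie left of 0 for germinal centre B cells against B cells and right of 0 for monocytes against mature dendritic cells.

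Levels also differed between libraries within a class. For each gene with at least 50 UMIs in a class, the highest library was set against the lowest. In B cells 31 of 40 genes passed 1.5-fold, against 16.4% of all 10273 genes, with a median ratio of 2.31 against 1.22. In CD8 T cells 25 of 41 passed, against 15%, in CD4 T cells 22 of 39, against 23.6%, and in regulatory T cells 20 of 33, against 40.8%. In mature dendritic cells 12 of 22 passed against 50.2% of all genes, which is near the background and became 7 without library 2, 3 or 4, and in monocytes all 32 tested passed against 69.1%. The highest library was library 3 or 4 for all 40 genes tested in B cells, against 32.4% of all genes, for 40 of 41 in CD8 T cells, against 35.5%, and for 38 of 39 in CD4 T cells, against 38%. It was 3 or 4 for 29 of 33 in regulatory T cells, against 51.9%, 15 of 22 in mature dendritic cells, against 47%, and all 32 in monocytes, against 50%. The count of genes highest in library 3 or 4 was not planned. Its split of libraries was taken from these same levels, so it describes them and tests nothing.

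Pairs of libraries were also compared, an addition made after the data were seen. In B cells 30 genes of 40 were at least 1.5-fold higher in library 3 than in library 1, against 2.87% of all genes, 29 in library 4 than in library 1, against 2.85%, 29 in library 3 than in library 2, against 2.94%, and 28 in library 4 than in library 2, against 2.98%. None was 1.5-fold lower in any of these 4 pairs, where 4.1%, 3.95%, 3.9% and 3.62% of all genes were. Library 2 exceeded library 1 for 1 gene and fell short for none, against 2.27% and 2.95% of all genes. Between libraries 4 and 3 no gene of the 40 passed, against 2.21% of all genes higher and 1.84% lower. The median ratio of the 40 genes was 2.15 for library 3 over library 1 and 0.985 for library 4 over library 3, where all genes had 0.967 and 0.979. B cells of libraries 1 to 4 had median UMIs of 3868.5, 3695, 3819 and 3748 and median mitochondrial shares of 5.41%, 5.15%, 5.37% and 5.69%, whose part in the result was not tested. In monocytes 14 of 32 genes were higher and 4 lower in library 2 than in library 1, against 13.9% and 14.7% of all genes, and 0 were higher and 14 lower in library 4 than in library 3, against 9.69% and 15.6%.

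**Figure D3:**
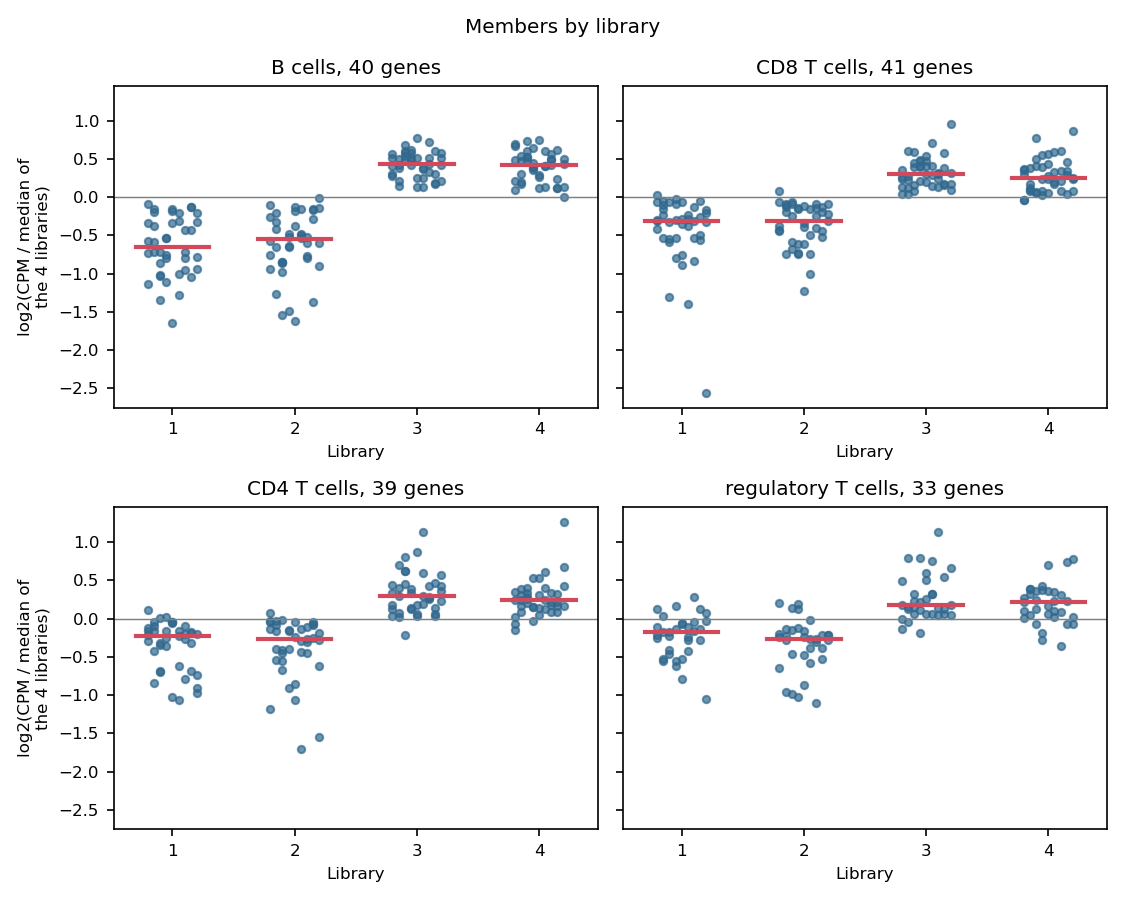
Level of each gene in each library relative to the median of the 4 libraries, as log2, in B (40 genes), CD8 T (41), CD4 T (39) and regulatory T cells (33). Each dot is 1 gene and the red bar is the median over genes, which lies below 0 in libraries 1 and 2 and above 0 in libraries 3 and 4 in all 4 panels. Ifi204 in CD8 T cells of library 2 is at 0 and is not drawn.

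Genes were not equally variable. In B cells the largest ratios of highest to lowest library were those of Ifit3b at 5.33, Irf7 at 4.85, Ifit3 at 4.37 and Oas3 at 3.96. Stat2, Irf9, Ddx58, Ifi203, Ifi209, Eif2ak2, Cmpk2, Samd9l and Parp14 did not pass 1.5-fold there. In CD8 T cells Ifi204 was at least 16-fold higher in library 3 than in library 2, where it had 0 UMIs and 3 counts served as the floor. Ifit3b at 4.30, Phf11d, a nuclear PHD-finger protein, at 4.22 and Ifit3 at 3.47 came next. In CD4 T cells Ifit3b stood at 7.16, Ifi204 at 6.98, Ifit3 at 3.75 and Oasl1 at 3.08, and in regulatory T cells Oasl2 stood at 4.73, Rsad2 at 3.54, Ifit3 at 3.5 and Ifit1 at 3.38. Monocyte ratios were larger, with Ifit1 at 28.6, Ifi213 at 22.9, Ifit2 at 12.6 and Ifit3 at 11, but come from 13 to 19 cells per library. Mature dendritic cells had ratios of 8.11 for Isg15, 7.91 for Zbp1, 6.08 for Xaf1, a pro-apoptotic zinc-finger protein, and 5.14 for Samd9l. Of the 33 genes tested in all 4 lymphocyte classes, 12 passed in each of them, against 1.11% of the 7492 genes so tested (Ifi27l2a, Ifit1, Ifit3, Irf7, Isg15, Oas1a, Oas3, Oasl2, Rsad2, Rtp4, Usp18 and Xaf1). Ddx58, Ifi203, Ifi209, Irf9, Parp14 and Stat2 passed in no lymphocyte class, as did 54% of all genes. The 17 genes with the motif in the promoter window had a median B cell ratio of 2.40, from 1.27 for Ifi203 to 5.33 for Ifit3b, and the 15 without it 1.86, from 1.26 for Samd9l to 4.85 for Irf7, so the ranges overlap almost fully.

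The sum over all 41 genes also varied from cell to cell. Each cell was thinned to 2000 UMIs so that depth did not set the sum, which left out as too shallow 289 of the 8916 B cells (64, 69, 54 and 102 by library), 13 CD4 T, 14 CD8 T and 18 regulatory T cells, 35 mature dendritic cells and 4 monocytes. B cells then held a mean of 9.26 member UMIs with a Fano factor (variance over mean, 1 for random counting) of 6.93. Median sums were 4, 5, 10 and 10 in libraries 1 to 4, and the share of B cells with none was 3.75%, 2.97%, 0.823% and 0.860%. The 5% of B cells with the largest sums held 17.7% of the UMIs. Medians were 4, 4, 6 and 6 in CD4 T cells, 4, 4, 5 and 5 in CD8 T cells, and 6, 7, 10 and 10 in regulatory T cells, with Fano factors of 6.10, 5.22 and 8.70. Mature dendritic cells had medians of 1, 2, 2 and 2 and a Fano factor of 3.14, and 13.1% of them held none. Monocytes had a Fano factor of 20.6 over 61 cells, a median of 18, quartiles of 5 and 40 and a maximum of 95. That factor includes the difference between libraries, whose medians were 6, 4.5, 27.5 and 35, and within libraries it was 13, 15.7, 22.6 and 12.1 over 12 to 19 cells each.

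**Figure D4:**
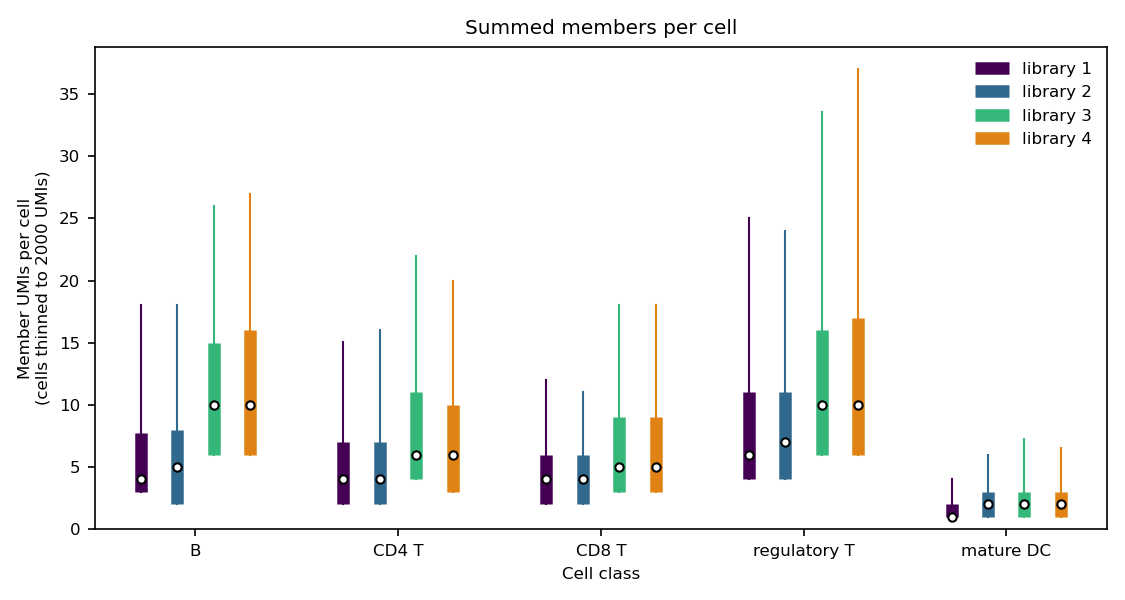
Sum of UMIs of the 41 genes per cell after thinning to 2000 UMIs, by library, in B, CD4 T, CD8 T, regulatory T and mature dendritic cells. White dots are medians, thick bars run between quartiles and thin lines reach the 95th percentile. The B cell median is 4 and 5 in libraries 1 and 2 and 10 in libraries 3 and 4.

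Shares of cells with a UMI followed the levels. After thinning, Ifit3 was seen in 4.28%, 3.51%, 17.2% and 18.5% of B cells of libraries 1 to 4, with exact binomial intervals of 3.41% to 5.28% in library 1 and 15.6% to 18.9% in library 3. Without thinning the shares were 7.06%, 5.93%, 27.5% and 28.7%. In mature dendritic cells, which hold hardly any Ifit3, the unthinned share was 1.22% (5 of 409 cells) at a median of 8201 UMIs, so the B cell shares stand above that background. Irf7 was seen in 6.31%, 5.02%, 22.4% and 22.1% of thinned B cells and Ifi27l2a in 59.4%, 59.4%, 86.9% and 87.0%.

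The genes were found together in the same cells. In thinned B cells with an Ifit3 UMI the other members summed to a mean of 19.3 UMIs, against 7.70 in B cells without one. Within libraries the pairs of means were 20.1 against 5.47, 19.97 against 5.63, 19.3 against 9.69 and 19.1 against 9.65, so the difference is present in each. Leaving out the 3 genes with most UMIs gave 10.3 against 3.41. CD8 T cells had 12.1 against 5.29, CD4 T cells 17.0 against 6.18 and regulatory T cells 22.3 against 9.70. Gene by gene, with all genes thinned alike and at least 50 UMIs required, the mean was at least 1.5-fold higher in cells with Ifit3 in all 4 libraries for 33 of 38 members in B cells, against 1.03% of 9220 genes. In CD8 T cells this held for 24 of 36 members, against 0.573% of 8721 genes. Isg15 was seen in 29.3%, 41.5%, 25% and 26.2% of B cells with Ifit3 and in 2.83%, 3.08%, 8.66% and 8.09% of those without. Ifit1 was seen in 24.4%, 20%, 14.9% and 12.0% against 0.926%, 0.447%, 2.69% and 3.16%.

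Of the interferon genes themselves only 11 were looked at, and apart from Ifng these were hardly detected. Other interferon genes were not examined. Ifnb1, Ifna1, Ifna2, Ifna4, Ifna5, Ifne, Ifnl2 and Ifnl3 had 0 UMIs in 26096 cells, which allows a share of up to 0.0115% of cells with a UMI for each. Ifnab had 2 UMIs and Ifnk 5. Ifng, the type II interferon that induces many of the same genes, had 207 UMIs in 114 cells, with 63, 60, 58 and 26 in libraries 1 to 4, and was highest in NK cells at 105 CPM (17 of 63 cells).

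Of 13 receptor and signalling genes, 1 passed 1.5-fold between libraries in B cells, against 16.4% of all genes. It was Socs3, a feedback inhibitor of cytokine signalling, at 10.5, 9.66, 6.71 and 6.82 CPM, with libraries 1 and 2 highest. Ifnar1 was at 47.2, 49.8, 47.5 and 48.9 CPM there. In regulatory T cells 5 of 12 passed (Ifnar1, Ifnar2, Irf1, Irf8 and Socs3), against 40.8% of all genes, and none of them was highest in library 3 or 4. In mature dendritic cells 3 of 12 passed, against 50.2%, and in monocytes 7 of 9, against 69.1%. Between classes, plasmacytoid dendritic cells were above B cells for Ifnar1 at a log2 ratio of 2.37, Ifnar2 at 3.23 and Irf8, a lineage transcription factor of dendritic cells and B cells, at 3.24. Of the 13 receptor and signalling genes, B cells were above CD4 T cells for 4 and below for 2, against 15% and 10.9% of all genes. Monocytes were above mature dendritic cells for 6 of 12 tested and below for 1, against 14.5% and 12.2%.

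Upstream sensors and adaptors, such as Tlr3, Tlr7, Myd88 and Mavs, numbered 11. In B cells Tlr3, Tlr7 and Ikbke passed 1.5-fold between libraries, against 16.4% of all genes. Germinal centre B cells were below other B cells for 6 of the 11, against 15.7% of all genes, with a median log2 ratio of -1.70, and monocytes were above mature dendritic cells for 4 of 7, against 14.5%. Tlr7, the endosomal receptor for single-stranded RNA, was higher in plasmacytoid dendritic cells than in B cells at 1.70. A further list held 57 interferon-stimulated genes. In B cells 22 of the 48 tested passed 1.5-fold between libraries, against 16.4% of all genes, 21 of them highest in library 3 or 4, among them Ifitm3, which blocks viral entry, at 13.6, 9.29, 36.7 and 44.1 CPM. In CD8 T cells 9 of 50 passed, near the 15% of all genes, and 5 of the 9 were highest in library 3 or 4. In regulatory T cells 11 of 43 passed, against 40.8% of all genes, 6 of them highest in library 3 or 4. Monocytes were above mature dendritic cells for 26 of 43 and below for 1, against 14.5% and 12.2% of all genes, with a median log2 ratio of 2.21. Germinal centre B cells were below other B cells for 21 of 48 and above for 2, against 15.7% and 8.66%.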

How the data were processed

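Droplet 3' single-cell RNA sequencing of inguinal lymph node cells of 4 mice was deposited by the authors as 1 pooled matrix of raw UMI counts per gene and barcode, made with cellranger 5.0.0 per the file headers, with mm10 as the genome build per the submitters' processing notes. Further upstream steps are not given in the sources used here. A number on each barcode separates 4 libraries, each taken as 1 suspension, which the files do not state, and all were read without a link to mice or treatment. The gene list, the marker lists and the tests were chosen with earlier results of these data known.

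Cells with at least 300 genes and at most 10% mitochondrial UMIs were kept. A cell entered a class when it held UMIs of at least 1 to 3 marker genes of that class and passed the gate of no other lineage, so 1767 cells with several lineages, 3223 T cells of no single class and 411 cells past no gate were left out. Doublets were treated by these gates, and Scrublet (scanpy 1.11.5, seed 1, 0.8% expected per 1000 cells), which called 105, 120, 228 and 474 cells, served as an alternative. Clusters were not computed. For each class in each library the raw counts of its cells were added up and expressed per 1000000 UMIs (CPM). With no replicate libraries of a known group no test was run, and no p-value is given. Intervals are exact Poisson for counts and exact Clopper-Pearson for shares, at 95%, and a count of 0 is given a limit of 3 counts. Thinned values used 2000 UMIs per cell. Named genes were, for each class comparison, up to 4 called genes each way with the largest ratio, for each class up to 4 with the largest ratio between libraries, and every listed gene by its range; a prior count of 1 UMI per class served for ordering. Comparisons of pairs of libraries, counts of genes highest in library 3 or 4, and the rule on 5 expected UMIs were added after the data were seen.

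The calling rule was tested on simulated counts drawn around each gene's real mean, pooled over both classes and all libraries. The same extra variation was set for every gene. Real differences between libraries, and between the cells of small classes, were not simulated. The shares that follow therefore do not measure the rule's error in these data. It called 0.295% to 2.08% of unchanged genes in 7 comparisons and 10.3% in that of plasmacytoid dendritic cells with B cells, and recovered 18.6% to 37% of genes changed 2-fold and 52.7% to 95.8% of those changed 4-fold. Alternatives were another fold, UMI minimum, cell filter, doublet removal, removal of cells with UMIs of another lineage, thinning, TMM scaling (edgeR 4.0.16 in R 4.3.3), removal of the 3 most abundant genes, and each library left out in turn. Python 3.11.15, numpy 2.4.6, pandas 2.3.3, scipy 1.17.1 and matplotlib 3.10.9 were used. Promoter sequences came from RefSeq (GRCm38.p6) and gene positions from GENCODE.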

Additional observations from a re-analysis of the deposited data

How the results depend on the processing

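Of 354 alternative values for 42 results, 303 stayed within their limits and 51 moved, 6 of the latter among the 132 that leave out 1 library. The cause of a move was not tested, except that higher minimums and thinning leave fewer genes to call. The counts below come without the share of all genes called under each setting. They show only how a count moved and are not read against a background. No paired analysis was possible because the barcode numbers are tied to no mouse, so replicate numbers in the labels cannot be carried to libraries. Class comparisons were themselves made within each library.

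At 2-fold, B cells against CD4 T cells gave 4 higher and 2 lower (8 and 4 in the report), CD8 against CD4 T cells 0 and 0 (2 and 2), regulatory T against CD4 T cells 1 and 1 (2 and 2), mature dendritic cells against B cells 3 higher (5), plasmacytoid dendritic cells against B cells 2 higher (6) and macrophages against monocytes 0 higher (1). Cells thinned to 1500 UMIs gave 2 lower for B against CD4 T cells, 0 higher for CD8 against CD4 T cells, 0 lower for regulatory T against CD4 T cells, 6 higher of 8 tested for monocytes against mature dendritic cells (26) and 1 lower for macrophages against monocytes (3). At 30 UMIs, regulatory T against CD4 T cells gave 1 higher and 0 lower, monocytes 15 higher of 22, and macrophages 1 lower. TMM scaling, which moved the log2 ratios of all genes by -0.31, -0.39, -0.48 and -0.49 for regulatory T, germinal centre B, plasmacytoid and monocyte comparisons and by at most 0.1 otherwise, gave 1 higher and 4 lower for regulatory T cells and 1 higher for plasmacytoid dendritic cells. At 500 genes and 5% mitochondrial UMIs, plasmacytoid dendritic cells had 3 higher, and macrophages 0 higher and 1 lower.

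Summed levels without Ifi27l2a, Ifi203 and Ifi209 were 2205 CPM in B (4642 with them), 1633 in CD4 T (3413), 1613 in CD8 T (2951), 1736 in regulatory T (5068) and 2273 in gamma-delta T cells (3791). Fano factors without them were 5.76 in B, 1.82 in germinal centre B, 4.63 in CD4 T and 5.55 in regulatory T cells, and at 1000 UMIs 3.91 in B, 2.11 in germinal centre B, 3.45 in CD4 T, 3.10 in CD8 T, 4.91 in regulatory T, 1.66 in NK cells and 10.5 in monocytes. Between libraries, a minimum of 200 UMIs gave 12 genes of 29 in CD4 T cells (22), 4 of 8 in mature dendritic cells (12) and 7 of 7 in monocytes (32), and thinning gave 3 of 4 and 4 of 4 in the last 2 classes. At the report's own minimum, 23.6%, 50.2% and 69.1% of all genes passed in these 3 classes, so most such counts may be background.

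Leaving out each library in turn gave 2 to 4 lower for CD8 against CD4 T cells (4 without library 1), 1 to 12 lower for macrophages against monocytes (12 without library 1, 1 without library 4) and 7 to 8 genes between libraries in mature dendritic cells (7 without library 2, 3 or 4).

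Depth limits the small classes: NK cells, plasmacytoid dendritic cells and monocytes hold 63, 56 and 65 cells. Macrophages number 170 but had a median of only 1010.5 UMIs per cell. A gene at 0 UMIs in plasmacytoid dendritic cells has a limit of 7.47 CPM.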

Other observations

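Libraries fell into 2 pairs by the summed level of the 41 genes in B cells, at 3077 and 3080 CPM in libraries 1 and 2 and 5819 and 5832 CPM in libraries 3 and 4. The gap was also present without Ifi27l2a, Ifi203 and Ifi209, at 1494, 1500, 2754 and 2731 CPM. In CD8 T cells the sums were 2272, 2286, 3513 and 3500 CPM, and in CD4 T cells 2813, 2823, 4046 and 3829 CPM. Numbers of germinal centre B cells were 135, 144, 5 and 4. No label used here assigns these libraries to mice or treatments, and these values are given without a comparison of groups.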
